A study of Mus musculus with 8 samples.

Results

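The genes described here encode the enzymes and transporters that carry glucose to lactate, together with the enzymes of the pentose phosphate pathway: 31 genes chosen by name from textbook pathway membership, of 55414 in the deposited table. Their RNA was measured by bulk sequencing of macrophages from mouse wound-bed skin, with 3 libraries taken 1 day after injury (day 1 a to c) and 5 taken 3 days after injury (day 3 a to e). Every library pooled 6 wounds from 3 mice, and cells of the digested wound bed were selected with magnetic beads against F4/80, a surface protein of macrophages encoded by Adgre1. Both groups are wounded mice with no treatment named other than the injury, no unwounded skin is among the samples used here, and the labels used here give neither strain nor age. The selection leaves whatever other cells the beads carry along, and in bulk RNA fewer cells of a type and less RNA per cell cannot be told apart.

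Glycolysis splits glucose into pyruvate in the cytosol and yields ATP without oxygen, and lactate dehydrogenase then turns pyruvate into lactate, which leaves the cell through monocarboxylate transporters. The pentose phosphate pathway branches off after the first phosphorylation, and supplies NADPH and ribose phosphate. Activated macrophages are known for a high rate of glycolysis, many of whose genes are targets of the hypoxia-inducible factor HIF-1, and NADPH from the branch feeds the oxidative burst.

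None of the genes passed the test between the days. By the edgeR quasi-likelihood test, with p-values adjusted after Benjamini and Hochberg across the 15371 genes of the fit and called under 0.05, 0 of the 30 genes tested were called in either direction. Over all genes tested 0.651% were called, 0.449% lower and 0.202% higher at day 3. At an unadjusted p under 0.05, 12 of the 30 were lower (15.9% of all genes tested) and 1 was higher (6.25%). The older form of the edgeR test also called 0 of the 30 (0.0130% of all genes tested). At an adjusted p under 0.1 stood Pkm, Hk3 and Slc16a3, lower at day 3 (5.26% of all genes tested), and Ldhb, higher at day 3 (1.61%). With a stricter filter on low counts, which tests 8142 genes, the same names passed the threshold of 0.05 by edgeR: Pkm, Hk3 and Slc16a3 lower (2.57% of genes tested) and Ldhb higher (1.58%), which is 4 of 28 against 4.15% of genes tested. Without day 1 c, a setting chosen after the data were seen, that filter left 0 of 28 called. DESeq2 called Pkm and Hk3 lower (4.29%) and Ldhb higher (2.48%), and limma voom called Pkm lower (4.46%) and 0 higher (0.950%). Both filters keep a gene through the day in which it is abundant.

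Printed here are the promoters of the 4 genes with an edgeR adjusted p under 0.1, and of Ldha, the partner isoenzyme of Ldhb. They were not chosen by their letters. Marked in them are the core letters of the HIF-1 response element. Capitals mark each ACGTG or GCGTG on either strand, so that CACGT and CACGC are the same letters read on the other strand, and a CACGTG, the E-box of Myc and its relatives, holds ACGTG on both strands. Sequences run from 250 bases before to 50 after the annotated start, 5′ to 3′ on the gene's strand, and come from RefSeq on GRCm38.p6.
Hk3, chr13:55021336-55021635, minus strand: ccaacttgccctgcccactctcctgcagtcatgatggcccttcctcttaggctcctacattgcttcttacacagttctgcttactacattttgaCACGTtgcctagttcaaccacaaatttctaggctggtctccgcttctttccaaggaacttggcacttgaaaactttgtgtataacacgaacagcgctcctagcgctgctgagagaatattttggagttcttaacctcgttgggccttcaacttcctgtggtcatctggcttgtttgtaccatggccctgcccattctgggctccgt
Pkm, first start, chr9:59656326-59656625, plus strand: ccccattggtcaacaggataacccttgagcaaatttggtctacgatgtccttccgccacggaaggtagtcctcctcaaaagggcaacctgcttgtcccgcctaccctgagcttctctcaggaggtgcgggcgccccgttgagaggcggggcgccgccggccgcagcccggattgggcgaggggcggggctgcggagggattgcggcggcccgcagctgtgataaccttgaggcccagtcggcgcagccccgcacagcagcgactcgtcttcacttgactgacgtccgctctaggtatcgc
Pkm, second start, chr9:59656977-59657276, plus strand: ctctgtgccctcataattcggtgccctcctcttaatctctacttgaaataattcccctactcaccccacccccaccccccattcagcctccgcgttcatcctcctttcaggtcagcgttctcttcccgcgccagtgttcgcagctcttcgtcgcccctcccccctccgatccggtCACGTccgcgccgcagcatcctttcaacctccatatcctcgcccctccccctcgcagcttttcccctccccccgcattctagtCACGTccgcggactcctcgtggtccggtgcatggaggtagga
Slc16a3, chr11:120948817-120949116, plus strand: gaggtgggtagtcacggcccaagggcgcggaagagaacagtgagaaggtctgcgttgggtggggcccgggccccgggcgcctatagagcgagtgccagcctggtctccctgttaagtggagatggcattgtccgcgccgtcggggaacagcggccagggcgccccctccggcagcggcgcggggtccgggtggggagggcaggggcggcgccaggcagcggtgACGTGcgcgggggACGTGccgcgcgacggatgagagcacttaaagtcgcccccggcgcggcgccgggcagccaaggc
Ldha, first start, chr7:46845554-46845853, plus strand: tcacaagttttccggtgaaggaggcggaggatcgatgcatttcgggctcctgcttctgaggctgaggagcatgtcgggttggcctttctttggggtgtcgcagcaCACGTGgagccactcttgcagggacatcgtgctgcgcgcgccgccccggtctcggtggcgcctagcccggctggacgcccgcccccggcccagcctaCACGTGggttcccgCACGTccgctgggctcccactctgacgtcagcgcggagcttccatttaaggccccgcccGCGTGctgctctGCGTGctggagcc
Ldhb, chr6:142507908-142508207, minus strand: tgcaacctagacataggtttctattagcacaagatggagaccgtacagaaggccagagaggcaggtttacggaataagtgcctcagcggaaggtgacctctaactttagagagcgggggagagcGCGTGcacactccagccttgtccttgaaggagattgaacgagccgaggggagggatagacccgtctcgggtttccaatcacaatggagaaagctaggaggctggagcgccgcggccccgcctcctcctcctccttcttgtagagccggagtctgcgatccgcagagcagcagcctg
The printed Ldha window held 7 matches, counted per strand, of which 4 came from its 2 CACGTG sequences. Slc16a3 held 2 matches, beginning 27 and 14 bases before the start, Hk3 and Ldhb held 1 each, and of the Pkm windows the first held 0 and the second 2. Another start of Ldha, chr7:46846832-46847131 and not printed, held 2 matches. Promoter sequences were found for 30 of the 31 genes, with Slc2a3 as the exception. Of these 30 genes, 27 (90%) held at least 1 match in a window, against 46.7% of 27025 genes with a promoter in the same table. Over windows the shares were 81.4% of 43 and 43.8% of 32851, and the mean share of G and C was 60.4% and 53.8%. A match describes letters only and marks no bound site.

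The libraries differed from one another within a day as well as between days. Total counts ran from 41566151 to 60289310, and between 0.538% and 1.78% of a library's counts fell on the 31 genes. Levels are given as CPM, which is counts divided by the library total, scaled by TMM and set to the usual CPM unit. All 7 macrophage markers were detected, led by Lyz2 and Cd68, and their sum was 13114 to 15797 CPM at day 1 and 22693 to 29304 CPM at day 3. Lyz2 carried that difference: the other 6 summed to 5278 to 6426 CPM and 5683 to 6937 CPM, which overlap, and among them Adgre1 was higher, at 686 to 946 CPM at day 1 and 991 to 1172 CPM at day 3, and Fcgr1 lower, at 716 to 975 CPM at day 1 and 343 to 491 CPM at day 3. The sum of the 6 monocyte markers overlapped between the days (2356 to 3064 CPM at day 1 and 1756 to 2411 CPM at day 3), while its members Ly6c2, at 183 to 504 CPM at day 1 and 58.6 to 122 CPM at day 3, Plac8, at 448 to 487 CPM at day 1 and 152 to 357 CPM at day 3, and Vcan, at 71.9 to 253 CPM at day 1 and 7.30 to 58.4 CPM at day 3, were lower at day 3 without overlap. The sum of the 12 neutrophil markers came to 846, 2257 and 3949 CPM at day 1 and 686, 3767, 448, 485 and 527 CPM at day 3, high in day 1 c and day 3 b and intermediate in day 1 b. In day 3 b all 12 were higher than in any other day 3 library, and in day 1 c 9 of the 12 were the highest of the day 1 libraries. S100a8 and S100a9 led that sum. Ly6g, the defining surface marker of neutrophils, was at 3.71, 3.90 and 6.85 CPM in day 1 a to c and 1.53, 6.82, 0.0391, 0 and 0.0189 CPM in day 3 a to e, and Camp, a granule gene, at 0 in 5 libraries and at most 0.933 CPM. Those of fibroblasts, led by Col3a1 and Col1a1, had a sum of 9.45 to 37.6 CPM at day 1 and 55.6 to 118 CPM at day 3. Of the other lists, the days were also apart for endothelial markers, led by Pecam1 and Kdr (31.2 to 75.8 CPM at day 1 and 17.2 to 29.7 CPM at day 3). They were apart for B and plasma cell markers, led by Cd79b and Ms4a1 (0.15 to 13.4 CPM at day 1 and 17.5 to 36.0 CPM at day 3). The same held for mast cell markers, led by Kit and Ms4a2 (4.02 to 11.1 CPM at day 1 and 0.115 to 3.94 CPM at day 3). The sums of the remaining 7 lists overlapped. Genes with at least 1 count numbered 23928 to 27315 at day 1 and 14952 to 20557 at day 3. The part of these differences in the values that follow was not tested.

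**Figure D1:**
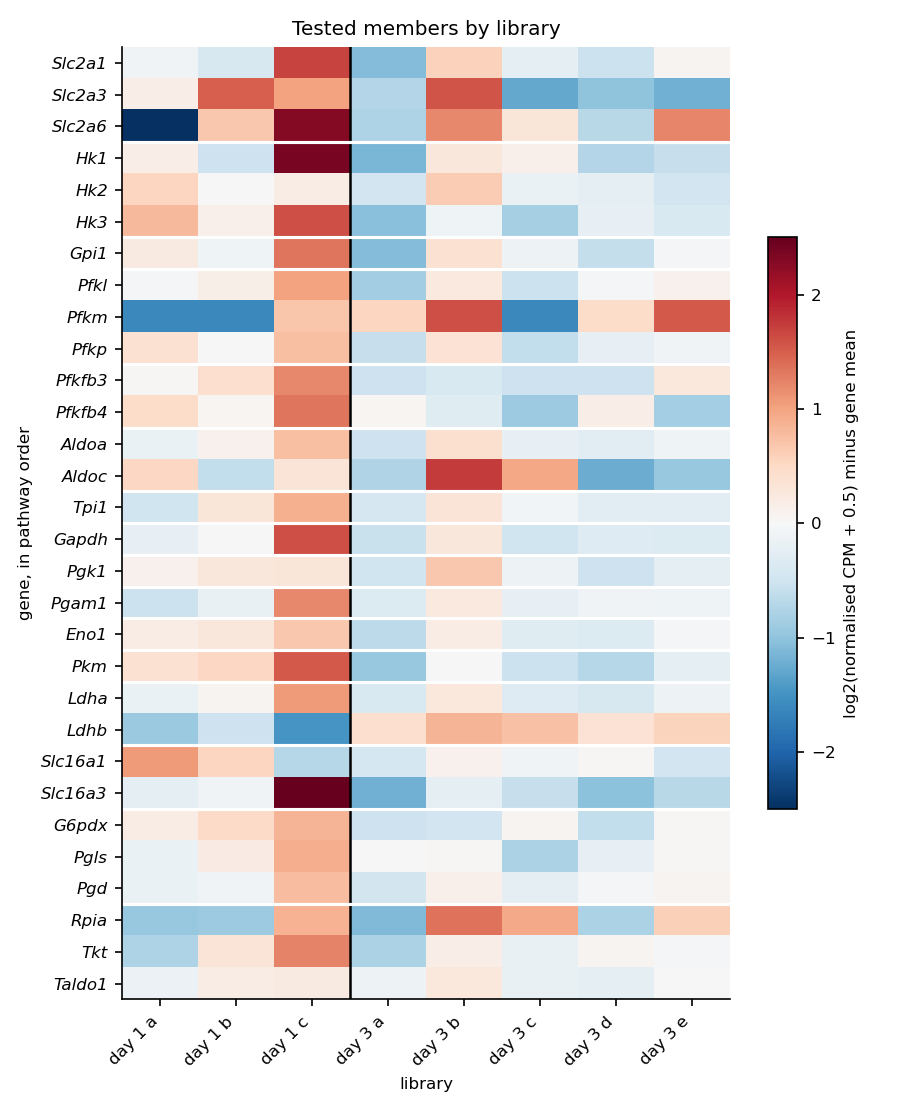
Heat map of the 30 tested genes (rows, in pathway order, white lines between steps) in the 8 libraries (columns, with a black line between the days). Colour is log2(normalised CPM + 0.5) minus the gene's mean over the libraries and saturates at 2.5 on either side; day 1 c is the highest library for 21 of the 30 genes, and day 3 b the highest day 3 library for 26.

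Most of the genes had lower values at day 3, by an amount that depended on day 1 c. Of the 30 tested genes, 26 had a log2 fold change (day 3 minus day 1, given ± its SE) below 0, against 57.6% of all genes tested. Their median was -0.61, and that of all genes tested -0.17. Day 1 c was the highest of the 8 libraries for 21 genes (70% of the 30, and 19.0% of all genes tested), and day 3 b was the highest day 3 library for 26 (86.7%, and 22.1%). Without day 1 c the median of the 30 was -0.19, with 22 of the 30 below 0 (55.9% of all genes tested), and without day 1 c and day 3 b together it was -0.34, with 25 below 0 (56.7%). Summed by step, in CPM, all 16 steps had a lower mean at day 3, and 15 of them still did without day 1 c. Those whose libraries did not overlap between the days were pyruvate kinase, enolase, the pair of enzymes that set fructose 2,6-bisphosphate, and the monocarboxylate transporters. Single genes whose day ranges did not overlap were Hk3, Eno1, Pkm and G6pdx, lower at day 3 (8.84% of all genes tested), and Ldhb, higher (5.22%).

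Glucose enters through the facilitative transporters of the Slc2a family, and the summed CPM of the 3 measured here was highest in day 1 c and day 3 b. Slc2a1, the broadly expressed transporter GLUT1, was at 87.3, 69.7 and 299 CPM in day 1 a to c and 43.3, 139, 78.2, 63.8 and 96.7 CPM in day 3 a to e. Day 1 c stood above every other library, day 3 b came next, and the days overlapped. The log2 fold change was -0.86 ± 0.47 (edgeR adjusted p = 0.311), and 0.10 without day 1 c. Slc2a3, which encodes GLUT3, a high-affinity transporter, was at 47.2, 119.9 and 85.0 CPM in day 1 a to c and 25.0, 126, 17.0, 20.7 and 18.02 CPM in day 3 a to e. Day 3 b was the highest of all 8 libraries, whereas the other 4 day 3 libraries lay below every day 1 library. Its log2 fold change was -1.05 ± 0.62 (edgeR adjusted p = 0.351), and without day 3 b it passed the threshold at -2.07 (edgeR adjusted p = 0.0277). Leaving out that library, the highest of day 3, also narrows the spread within the day. The 3 libraries with the most Slc2a3 were also the 3 with the highest neutrophil marker sum, though in a different order. Slc2a3 was highest in day 3 b and the marker sum in day 1 c, and the part of neutrophils in these values was not tested. Slc2a6, a lysosomal member of the family, had 2 counts in day 1 a and between 296 and 2801 counts elsewhere, and its log2 fold change was -0.70 ± 0.78, or 0.61 without day 1 c. Per kilobase of exon, Slc2a1 made up 67.5% ± 17.1 and 72.6% ± 7.14 of the transporter CPM at day 1 and day 3 (mean ± SD, 3 and 5 libraries). Exon length here covers all annotated exons of a gene and can exceed the transcript expressed, so shares between genes depend on the annotation.

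Hexokinases trap glucose as glucose 6-phosphate, and Hk3 was the isoenzyme whose days did not overlap. Hk3 (ENSMUSG00000025877, GRCm39 chromosome 13, 55153798 to 55169198, minus strand), a form expressed in myeloid cells, was at 97.4, 60.2 and 169.6 CPM in day 1 a to c and 26.3, 51.3, 30.8, 47.9 and 42.0 CPM in day 3 a to e. Every day 3 library lay below every day 1 library, with day 1 b and day 3 b the closest. The log2 fold change was -1.46 ± 0.34 (edgeR adjusted p = 0.0669, and 0.038 with the stricter filter), and -0.98 without day 1 c. Hk1, the housekeeping form bound to mitochondria, was at 18.8, 11.4 and 88.2 CPM in day 1 a to c and 7.30, 20.5, 18.1, 9.86 and 11.1 CPM in day 3 a to e. Only day 1 c stood out for Hk1: its log2 fold change was -1.58 ± 0.60 with that library and -0.15 without it. Hk2, the inducible form, was at 101, 69.2 and 79.3 CPM in day 1 a to c and 49.8, 107, 61.5, 59.2 and 49.4 CPM in day 3 a to e, with day 1 a and day 3 b high and the days overlapping (log2 fold change -0.34 ± 0.29). Per kilobase of exon, the share of Hk3 in the summed hexokinase CPM was 58.1, 55.8 and 66.1% at day 1 and 43.7, 40.6, 40.2, 54.0 and 54.4% at day 3. That share was lower in all 5 day 3 libraries, with means of 60.01% ± 5.39 and 46.6% ± 7.08, and the share of Hk2 had means of 31.9% ± 11.2 and 46.7% ± 5.97 with overlapping days.

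The committed step is made by phosphofructokinase, which is switched on by fructose 2,6-bisphosphate. Gpi1, the isomerase ahead of it, was at 178 to 488 CPM at day 1 and 89.8 to 250.3 CPM at day 3, with a log2 fold change of -0.85 ± 0.36 and -0.29 without day 1 c. The liver-type and platelet-type subunits, Pfkl and Pfkp, were at 115 to 239 CPM at day 1 and 64.9 to 142 CPM at day 3, and 108 to 184 CPM at day 1 and 70.6 to 139.8 CPM at day 3, respectively. Their log2 fold changes were -0.61 ± 0.31 and -0.59 ± 0.27, and their shares of the phosphofructokinase CPM per kilobase overlapped between the days, with Pfkl at 68.1% ± 5.43 and 66.9% ± 3.47. The muscle subunit Pfkm had 0 counts in day 1 a, day 1 b and day 3 c and between 90 and 208 in the others, and shares 341 of its 3340 exon bases with a neighbouring gene model, Gm26513 (log2 fold change 1.71 ± 1.23). Pfkfb3, whose product makes fructose 2,6-bisphosphate, was at 69.6, 91.7 and 157 CPM in day 1 a to c and 47.4, 52.4, 47.4, 47.7 and 81.7 CPM in day 3 a to e. Of the day 3 libraries only day 3 e reached the day 1 range. For Pfkfb3 the log2 fold change was -0.95 ± 0.29 (edgeR adjusted p = 0.106), and -0.56 without day 1 c. Pfkfb4, another enzyme of this kind, was at 16.0 to 39.4 CPM at day 1 and 7.97 to 17.3 CPM at day 3 (-1.04 ± 0.39). Summed, Pfkfb3 and Pfkfb4 were lower in every day 3 library, at 90.9, 108 and 196 CPM against 63.3, 64.8, 55.4, 64.9 and 90.0 CPM.

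**Figure D2:**
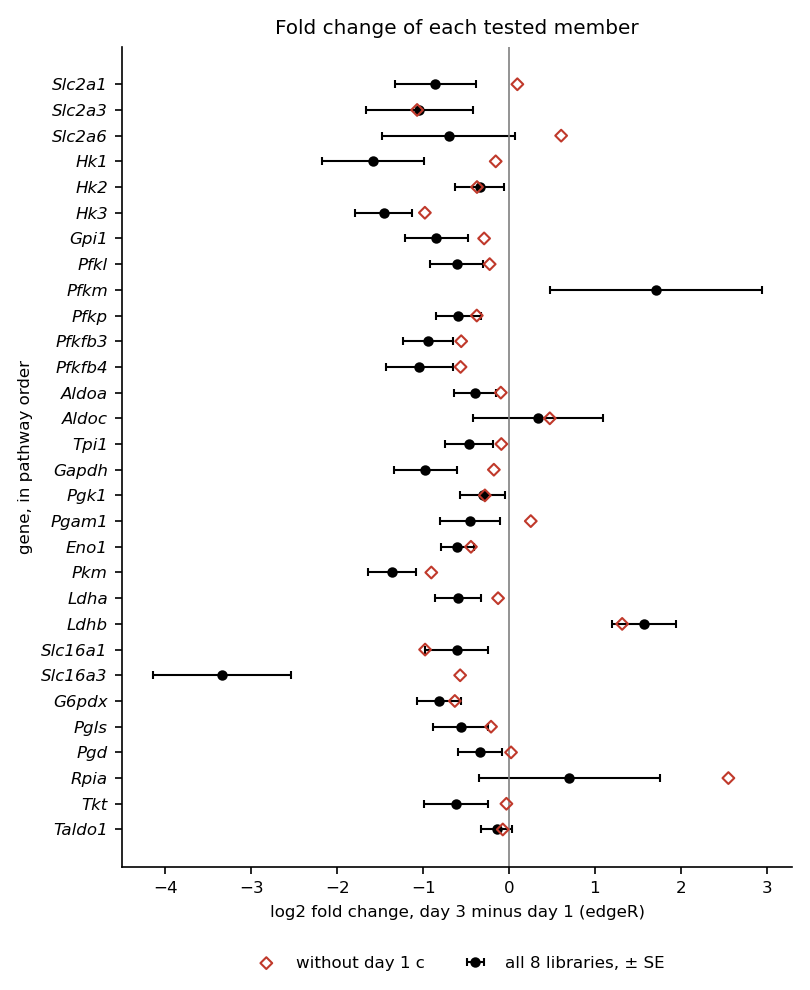
Log2 fold change of each tested gene, day 3 minus day 1, from edgeR with all 8 libraries (black points, bars are ± SE) and without day 1 c (red open diamonds). Without day 1 c Slc16a3 moves from -3.34 to -0.57 while Pkm is at -0.90 and Ldhb at 1.32; Pfkm has no diamond because day 1 a and b hold 0 counts.

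Pkm had the smallest adjusted p of the 30 genes. Pkm (ENSMUSG00000032294, GRCm39 chromosome 9, 59563651 to 59586658, plus strand), which encodes the pyruvate kinases PKM1 and PKM2 of the last ATP-making step, was at 1902, 2098 and 4259.5 CPM in day 1 a to c and 762, 1448, 1008, 889.9 and 1259 CPM in day 3 a to e. All 5 day 3 libraries lay below all 3 day 1 libraries, and day 1 c was the highest by a wide margin. The log2 fold change was -1.36 ± 0.28 (edgeR adjusted p = 0.0557, 0.0306 with the stricter filter, and 0.000968 by DESeq2), and -0.90 without day 1 c. Without both day 1 c and day 3 b it was -1.03 and passed the threshold (edgeR adjusted p = 0.0453). Those libraries were the highest of their days for Pkm, so leaving them out also narrows the spread within each day. Passing the threshold in that setting is therefore no added support. Counts per gene do not separate PKM1 from PKM2, and 767 of the 5001 exon bases are shared with the gene model Gm49759. Eno1, the enolase ahead of pyruvate kinase, was at 2399, 2547 and 3369.6 CPM in day 1 a to c and 1341, 2375, 1702, 1658 and 2058 CPM in day 3 a to e. Its days did not overlap either, though day 3 b came close to day 1 a, and its log2 fold change was -0.60 ± 0.19 (edgeR adjusted p = 0.113). Eno2, the neuronal enolase, was too low to test, at 1.77 CPM in day 1 b, 0.802 CPM in day 3 a, 3 counts in day 1 c and 0 counts in the other 5 libraries.

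Gapdh, often used as a reference gene, was at 355, 412 and 1245 CPM in day 1 a to c and 278, 497, 287, 324 and 320.1 CPM in day 3 a to e. Day 1 c was the highest and day 3 b the next, and the other 6 libraries lay between 278 and 412 CPM. For Gapdh the fold change on the log2 scale was -0.98 ± 0.37 (edgeR adjusted p = 0.154) with all libraries and -0.18 without day 1 c. Aldoa, the main aldolase, was at 1092 to 2081 CPM at day 1 and 863 to 1625 CPM at day 3 (-0.40 ± 0.24), and Tpi1, which interconverts the triose phosphates, at 274 to 722 CPM at day 1 and 289.6 to 488 CPM at day 3 (-0.46 ± 0.28). Pgk1, the first ATP-making enzyme, was at 356 to 406 CPM at day 1 and 229 to 527 CPM at day 3 (-0.31 ± 0.26), with day 3 b the highest of all 8 libraries. Pgam1, which moves the phosphate group of phosphoglycerate, was at 52.1 to 176 CPM at day 1 and 60.1 to 90.7 CPM at day 3, and its log2 fold change of -0.46 ± 0.35 became 0.25 without day 1 c. Aldoc, the aldolase of brain, was low, at 3.47 to 8.17 CPM at day 1 and 2.09 to 19.8 CPM at day 3, and its fold change of 0.33 ± 0.76 was below 0 without day 3 b.

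Levels per kilobase divide by all annotated exon bases, 4133 for Gapdh and 5001 for Pkm, and not by the transcript expressed, so ranks between genes are approximate. On that scale the highest mean levels at day 1 and day 3 were those of Pkm (550.5 and 215 CPM per kb), Aldoa (516 and 391), Eno1 (515 and 339.6) and Ldha (322 and 214). At day 1 the mean of Pkm led through day 1 c, at 852 CPM per kb; in day 1 a and day 1 b it stood at 380.2 and 419, below Eno1 at 446 and 474. At day 3 the mean of Pkm lay below those of Aldoa and Eno1, about level with that of Ldha. Reads placed at several positions are by default not counted by featureCounts, which bears on copied genes. Of all 50-base windows of the transcripts, 53.9% for Pgk1, 36.2% for Pgam1, 25.99% for Eno1, 25.8% for Pkm, 25.1% for Gapdh and 21.0% for Ldhb also occur in a transcript of another gene. Of 100-base windows the shares were 51.7% for Pgk1, 33.9% for Pgam1, 20.4% for Eno1, 12.3% for Pkm, 20.9% for Gapdh and 6.44% for Ldhb, and no source used here gives the read length. For 50 bases, those other genes were pseudogenes in 215 of 223 cases for Gapdh, 5 of 5 for Pgk1, 4 of 4 for Pgam1, 7 of 8 for Pkm, 1 of 1 for Ldhb and 8 of 23 for Eno1. The retrogene Eno1b had 0.274% to 0.411% of the Eno1 count, and no other listed copy had more than 121 counts in a library.

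**Figure D3:**
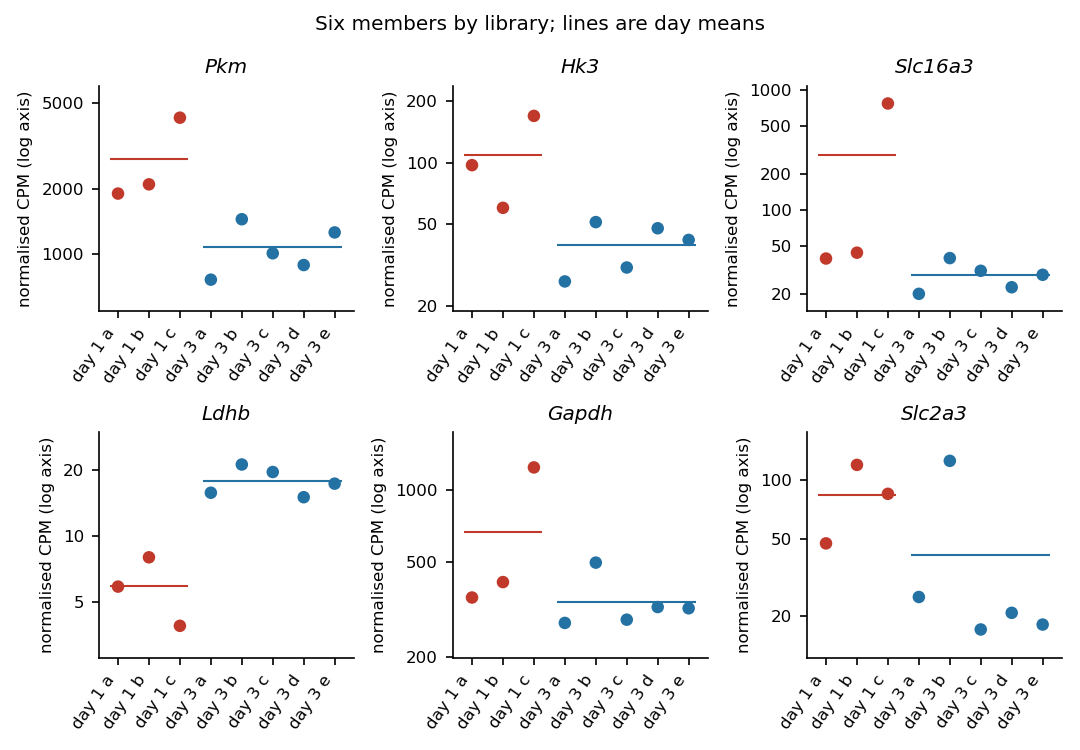
Normalised CPM (log axis, with its own range for each gene) of 6 genes in each library, red for day 1 and blue for day 3, with lines at the day means. Pkm, Hk3 and Ldhb separate the days; in Slc16a3 and Gapdh day 1 c lies apart from the rest, and in Slc2a3 day 3 b lies with the day 1 libraries.

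At the lactate step the isoenzymes had fold changes of opposite sign. Ldha, which encodes the subunit that favours making lactate, was at 713, 829.8 and 1657 CPM in day 1 a to c and 613, 958, 637, 607 and 731 CPM in day 3 a to e, with day 1 c high and the days overlapping. Its log2 fold change was -0.59 ± 0.27 (edgeR adjusted p = 0.223), and -0.13 without day 1 c. Ldhb (ENSMUSG00000030246, GRCm39 chromosome 6, 142435975 to 142453683, minus strand), encoding the heart-type subunit that favours turning lactate back into pyruvate, was at 5.87, 7.98 and 3.88 CPM in day 1 a to c and 15.7, 21.2, 19.6, 15.0 and 17.3 CPM in day 3 a to e. Every day 3 library was higher than every day 1 library, and day 1 c, the highest library for most of the other genes, was the lowest. The log2 fold change was 1.57 ± 0.37 (edgeR adjusted p = 0.0717, 0.0495 with the stricter filter, and 0.000739 by DESeq2), and 1.32 without day 1 c. Per kilobase of exon, Ldhb made up 1.71, 1.99 and 0.492% at day 1 and 5.14, 4.45, 6.09, 4.96 and 4.76% at day 3 of the lactate dehydrogenase CPM. Its mean share was 1.39% ± 0.795 and 5.08% ± 0.618 (mean ± SD, 3 and 5 libraries), with no overlap between the days, and Ldha made up at least 93.9% in every library. The share was not tested.

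Lactate leaves through the proton-coupled transporters MCT1 and MCT4, and the day 1 mean of the second rested on 1 library. Slc16a3 (ENSMUSG00000025161, GRCm39 chromosome 11, 120839306 to 120851694, plus strand), encoding MCT4, the exporter of highly glycolytic cells, was at 39.3, 43.9 and 775 CPM in day 1 a to c and 19.9, 39.6, 31, 22.6 and 28.7 CPM in day 3 a to e. Day 1 c was far above all others, and the lowest of the remaining day 1 libraries, day 1 a, lay just below day 3 b, so the days overlapped. Its log2 fold change was -3.34 ± 0.80 (edgeR adjusted p = 0.0742, and 0.0408 with the stricter filter), but -0.57 without day 1 c, when its adjusted p was 0.418 by edgeR. DESeq2 gave no adjusted p for Slc16a3. Slc16a1, encoding MCT1, was at 51.8, 35.9 and 14.8 CPM in day 1 a to c and 18.1, 26.5, 23.0, 25.2 and 17.4 CPM in day 3 a to e. Here day 1 c was the lowest library, the days overlapped, and the log2 fold change was -0.61 ± 0.37, or -0.98 without day 1 c. The share of Slc16a3 in the transporter CPM per kilobase was 97.8% in day 1 c and between 38.7% and 57.8% in the other 7 libraries. Slc16a3 shares 306 of its 5318 exon bases with Csnk1d on the other strand, and counting did not use strand.

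**Figure D4:**
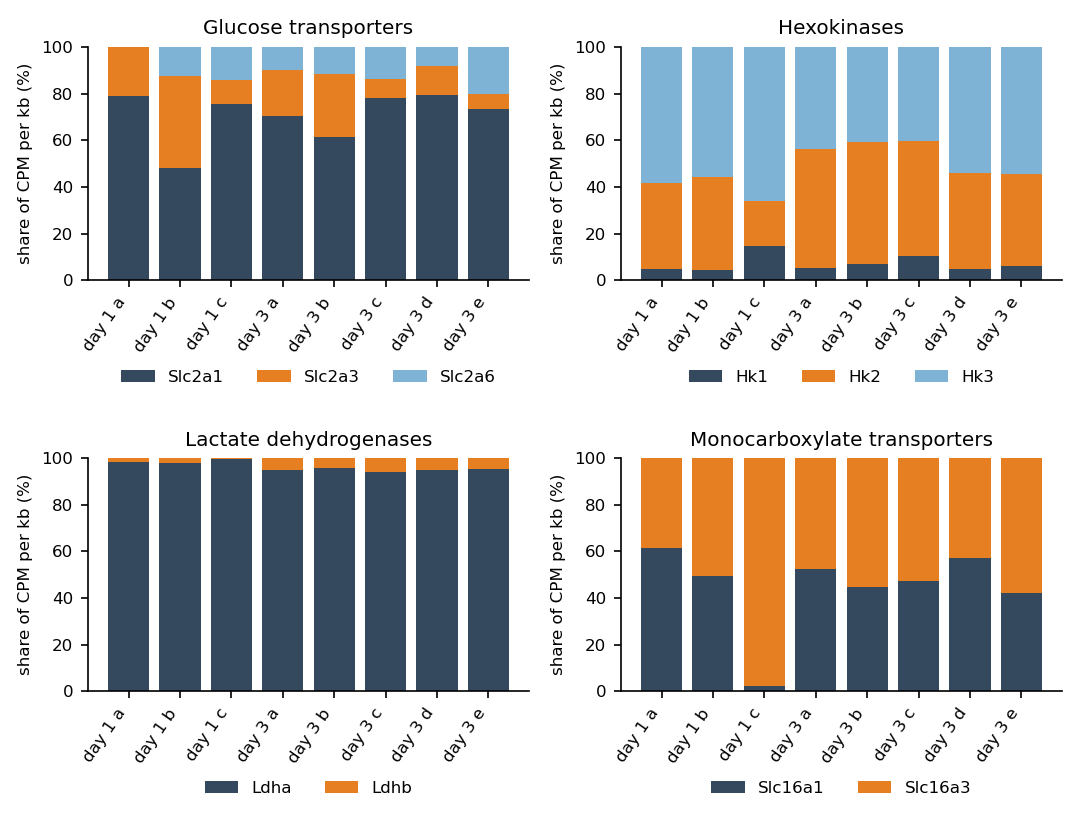
Share of each isoenzyme in the summed CPM per kilobase of its step (bars stacked to 100%) in each of the 8 libraries, for glucose transporters, hexokinases, lactate dehydrogenases and monocarboxylate transporters. Ldhb takes 0.492% to 1.99% at day 1 and 4.45% to 6.09% at day 3, and Slc16a3 takes 97.8% in day 1 c.

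In the pentose phosphate pathway only the entry enzyme had days that did not overlap. G6pdx, glucose 6-phosphate dehydrogenase, which makes the first NADPH, was at 59.5, 72.8 and 94.5 CPM in day 1 a to c and 36.3, 37.3, 54.8, 33.7 and 53.3 CPM in day 3 a to e. All day 3 libraries lay below all day 1 libraries, with day 3 c and day 3 e close to day 1 a. The log2 fold change of G6pdx was -0.82 ± 0.25 (edgeR adjusted p = 0.106), and -0.63 without day 1 c, and the gene shares 418 of 3080 exon bases with Ikbkg. Pgls, which opens the lactone ring, was at 22.2 to 47.3 CPM at day 1 and 14.2 to 25.7 CPM at day 3 (-0.56 ± 0.32), and Pgd, which makes the second NADPH, at 75.3 to 145 CPM at day 1 and 61.3 to 91.9 CPM at day 3 (-0.34 ± 0.26, and 0.02 without day 1 c). The lactonase count is limited by 776 of 3770 exon bases in common with Fam129c. On the non-oxidative side, transketolase, Tkt, was at 38.3 to 155 CPM at day 1 and 37.9 to 73.9 CPM at day 3 (-0.61 ± 0.37), and transaldolase, Taldo1, at 230.1 to 299.7 CPM at day 1 and 219 to 306 CPM at day 3 (-0.14 ± 0.18). Taldo1 had the smallest SE of the 30 genes, with a 95% interval of the log2 fold change from -0.49 to 0.21. Rpia, which isomerises ribose phosphate, was low, with 8 to 152 counts in a library and a log2 fold change of 0.70 ± 1.05.

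The neighbouring genes of the pathway showed no called change either. Of 42 tested genes in 4 related lists, 0 were called by edgeR in either direction (0.651% of all genes tested). At an unadjusted p under 0.05 stood 4 of the 42, where of all genes tested 15.9% were lower and 6.25% higher. DESeq2 called Hif1a lower (4.29% of all genes tested) and Pdhb higher (2.48%), and limma voom Hif1a lower (4.46%). Hif1a, encoding the oxygen-regulated subunit of HIF-1, came closest, at 547, 432 and 786 CPM in day 1 a to c and 205, 351, 291, 284 and 304 CPM in day 3 a to e. Each day 3 library was lower than each day 1 library, and the log2 fold change was -1.04 ± 0.22 (edgeR adjusted p = 0.0627, 0.033 with the stricter filter, 0.00195 by DESeq2 and 0.0298 by limma voom). Without day 1 c it was -0.77 (edgeR adjusted p = 0.104), and -0.73 with the stricter filter (edgeR adjusted p = 0.0613). Below a log2 fold change of 0 lay 57.6% of all genes tested, the share to set beside the counts of each list. Among 10 regulators of glycolytic transcription, 5 lay above 0 and 5 below. Bhlhe40, a hypoxia-responsive repressor, had means of 324 ± 78.5 and 327 ± 103 CPM on the 2 days. Of 13 tested genes that bring pyruvate into mitochondria, 5 lay above 0 and 8 below. Pdhb, a subunit of pyruvate dehydrogenase, was at 76.0, 107 and 65.0 CPM in day 1 a to c and 136, 141, 152, 127 and 108 CPM in day 3 a to e. Pdhb was higher in every day 3 library, by 0.68 ± 0.22 on the log2 scale (edgeR adjusted p = 0.114, and 0.0396 by DESeq2). Without day 1 c the log2 fold change of Pdhb was 0.53 (edgeR adjusted p = 0.207). Pdha1, another subunit, had the other sign, at -0.53 ± 0.25 (edgeR adjusted p = 0.240). Dld, a further subunit, was at 91.9 ± 19.6 and 86.5 ± 8.14 CPM. Among 13 tested further glycolysis genes, 7 lay above 0 and 6 below. Bsg, the chaperone that takes MCT1 and MCT4 to the membrane, was at 635 ± 15.2 and 691 ± 198 CPM (0.12 ± 0.21), and its relative Emb at 426 ± 108 and 331 ± 71.2 CPM (-0.37 ± 0.22). The 6 tested further pentose phosphate genes had 4 above 0 and 2 below, with Prps1 at 52.4 ± 29.2 and 55.5 ± 5.86 CPM and Rpe at 46.7 ± 6.66 and 39.7 ± 8.09 CPM.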

How the data were processed

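The authors deposited raw counts per gene for 8 libraries. The counter was featureCounts 1.6.0 with Ensembl 106 gene models on GRCm39, per the file headers, run without options for strand, read pairs or multiply placed reads. No source used here names the aligner. The header's alignments and its columns differ in some letters within a day, so a to e serve here as names only. Of counts from 2 to 20, 73.0% to 86.0% were even per library, as when each read of a pair is counted on its own. Of the 55414 genes, 94.0% were given a symbol, and 1 Aldoa entry of 2, with at most 1 count, was left out. Genes were filtered with filterByExpr (minimum count 10), scaled with TMM and tested with the two-sided quasi-likelihood F test of edgeR 4.0.16 in its newer form (R 4.3.3), over the whole table. The stricter filter asked for 1 CPM in every library of a day and a mean of 5 CPM. DESeq2 1.42.0 and limma 3.58.1 were alternatives, with other scalings, halved counts, copies added to parent genes and libraries left out. Fits were tested on simulated data. Transcript windows came from a GRCm38 annotation, and shared exon bases from the GRCm39 gene models of the deposited counts. Figures used matplotlib 3.10.9.

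Means are ± SD, n = 3 and 5 pools. Whether pools shared mice is not in the labels, and p-values then measure only how far these pools differ. The genes and lists were chosen with earlier results of these data known. All 31 genes were named whatever their result, then the called genes of each related list or else its 2 most abundant per kilobase. Also named were the 2 most abundant of each marker list whose sum is given, and Adgre1, Ly6g and Camp for what they define. Fcgr1, Ly6c2, Plac8 and Vcan were named after their values were seen.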

Additional observations from a re-analysis of the deposited data

Results flagged for a closer look

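In 5 genes 1 of the 5 day 3 libraries lay apart from the rest, its gap to the nearest library being above 0.71 of the group's range. Slc2a3 was at 126 CPM in day 3 b, against 25.0 CPM in the next highest day 3 library. Hk2 was at 107 CPM in day 3 b, against 61.5 CPM. Gapdh was at 497 CPM and Pgk1 at 527 CPM in day 3 b, against 324 and 302 CPM. Pfkfb3 was at 81.7 CPM in day 3 e, against 52.4 CPM. With independent, normally distributed values the cut marks about 1 in 20 groups of 5. CPM of genes measured in the same libraries need not meet those conditions, so that rate may not hold here. The day 1 group of 3 libraries was not examined in this way. All 12 neutrophil markers also had their highest day 3 value in day 3 b, and the part of those cells in the values was not tested.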

How the results depend on the processing

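With 1 library left out, the number of these genes called by edgeR ran from 0 to 3 (Hk3, Pkm and Slc16a3 without day 1 b, Pkm and Slc2a3 without day 3 b), of the related genes from 0 to 1 and of all genes tested from 2 to 278; the median log2 fold change of the pathway ran from -0.83 without day 1 a to -0.21 without day 1 c, both over 31 genes with Eno2 among them. Called genes (all, pathway, related) numbered 1041, 3 and 2 with DESeq2, 831, 1 and 1 with limma voom, 989, 1 and 1 with quality weights, 178, 1 and 1 with a robust prior, 213, 3 and 1 without a filter, and 338, 4 and 1 with the stricter filter. The older form of the edgeR test, the default of the package version, called 2 genes and 0 of the pathway. Halved counts called 138 of 13838 genes tested and 1 of the pathway (Pkm). Leaving out day 1 c and day 3 b together called 109 of 16457 genes tested and 1 of the pathway (Pkm). Chosen after the data were seen, the stricter filter gave 146, 1 and 0 with the older form, 274, 0 and 0 without day 1 c (median -0.18), and 521, 2 and 1 without day 1 c and day 3 b. No pairing of pools by the letters a to c is given in the labels or was seen. Correlations of deviations were 0.072, 0.0077 and 0.010 for the same letter and -0.089 to 0.074 for different letters, which cannot exclude a pairing. With these letters alone 0 genes were called with or without the letter as replicate block (1818 and 2298 at an unadjusted p under 0.05). The median with the block was -0.54. The cause of these shifts was not tested.

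Of 688 pairs of a gene and another setting, 656 kept sign and side of the threshold, 20 were called and 12 had the other sign; of 84 pairs with the later settings, 3 were called and 9 had the other sign. With 1 library left out the fold change ran from -1.22 to 0.097 for Slc2a1, -1.26 to 0.61 for Slc2a6, -0.35 to 0.60 for Aldoc, -0.78 to 0.25 for Pgam1 and -0.53 to 0.023 for Pgd. With limma voom, without and with quality weights, Slc2a6 was at 1.06 and 0.45 and Aldoc at -0.15 and -0.052. Without day 1 c and day 3 b, Slc2a6 was at 0.33, Aldoc at -0.20 and Pgam1 at 0.16. With the stricter filter and without day 1 c, Slc2a1 was at 0.14, Slc2a6 at 0.66, Pgam1 at 0.29, Pgd at 0.063 and Tkt at 0.013, and without both libraries Slc2a6 was at 0.36, Aldoc at -0.16, Pgam1 at 0.19 and Pgd at 0.0038. Depth limits Pfkm, Rpia and Eno2, where several libraries lie at or near 0 counts, and 3 libraries at day 1 leave the spread poorly known.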
